A study of Homo sapiens with 6 samples.

Results

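The genes described here encode coagulation and complement factors, most of them plasma proteins made mainly by the hepatocyte. They were taken from a list of 42 gene symbols, and 38 of these had a transcript cluster (the set of exon probes that stands for 1 gene on the array) annotated with exactly 1 gene symbol, out of 12676 genes in all. The list is one of gene names, with no threshold on a measured value. It was chosen, however, with earlier results of these data known. The 6 samples came from wells of HepG2, a human hepatoblastoma line that is used as a stand-in for hepatocytes. The 3 atorvastatin samples received 10 µM atorvastatin, named in the labels as (3S, 5S)-Atorvastatin Sodium Salt and dissolved in water, for 24 h. The 3 control samples were non-treated. Both groups were kept on collagen I in medium with human lipoprotein deficient serum in place of fetal bovine serum. The arrays therefore describe 1 tumour-derived line in triplicate wells. The labels do not say that the wells were separate cultures, so any *p* here reflects the scatter among these wells, which may be technical. Plasma or secreted protein was not measured.

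Coagulation is a chain of serine protease zymogens in which tissue factor with factor VII, or the contact factors, lead to factor X, prothrombin and the cleavage of fibrinogen to fibrin. Serpins, protein C with protein S, and the tissue factor pathway inhibitor hold the chain in check, and plasmin dissolves the clot. Complement is a related chain in which the classical, lectin and alternative arms meet at C3 and C5 and end in the terminal components that form a membrane pore. Atorvastatin inhibits HMG-CoA reductase, the rate-limiting enzyme of cholesterol synthesis.

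Each sample was measured on a GeneChip Human Exon 1.0 ST array, and the deposited values are log2 values after robust multi-array normalization (RMA), 1 per cluster and array. Array medians were 6.67 to 6.71 in the atorvastatin arrays and 6.66 to 6.72 in the control arrays, and the SD over all clusters was 1.95 to 2.01 in the atorvastatin arrays and 1.95 to 2.04 in the control arrays. To check the labels, *MVD*, a mevalonate pathway enzyme, had log2 values of 9.14, 9.12 and 9.09 in the atorvastatin arrays, against 8.47, 8.41 and 8.26 in the control arrays (log2 difference 0.74). It had an adjusted *p* of 0.535 in limma with the replicate number as block, and of 0.0402 without the block and 0.000615 with a trended and robust variance. *HMGCS1*, the HMG-CoA synthase, differed by 0.73 (adjusted *p* = 1, 0.252 and 0.0147 in the same fits from limma), and in both genes all atorvastatin arrays were above all control arrays. The hepatocyte markers measured (6 of 10) had mean log2 values of 11.05 to 12.26. Of the 13 measured markers of fibroblasts, endothelial cells and leukocytes, 10 had a mean log2 value under 6, the level taken as dim, and *COL1A1*, *COL1A2* and *ESAM* were above it. Levels of different genes come from probes of their own and are used here only to mark dim genes.

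Does atorvastatin change the expression of these factors in HepG2 cells? Of the 38 genes, 29 had a lower mean and 9 a higher mean in the atorvastatin arrays, but the differences were small and none passed the correction. The mean was lower in 76.3% of the 38 genes and in 44.2% of all 12797 clusters tested. The median log2 difference (atorvastatin minus control) was −0.065 over the 38 genes, against 0.011 over all clusters, and single differences ran from −0.26 for *C5* to 0.10 for *C8A*. In limma, with a block for replicate numbers, 0 of the 38 genes had an adjusted *p* under 0.05 over all clusters (adjusted *p* = 1 for each), where the background was 0.0% of all clusters. Without the block the count was also 0 of 38, against 0.0313% of all clusters. Only *C5* had an unadjusted *p* under 0.05 (1 of 38, against 0.992% of all clusters), and the 95% confidence intervals of the other 37 genes included 0. The intervals reached from −0.64 (*FGG*) to 0.46 (*C9*) over the list, so small changes in either direction were not detectable with 3 arrays per group. With the block, the correction called none of the 12797 clusters, not even *MVD* at a log2 difference of 0.74. An adjusted *p* above 0.05 in that fit therefore says little about larger changes too. As the extracts are bulk RNA, fewer cells that express a gene and less RNA per cell cannot be told apart.

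The median difference was nearer to 0 without control replicate 3. This array held the highest of the 6 values in 20 of the 38 genes (52.6%), against 20.2% of all clusters. Among genes with a mean log2 value of at least 6, it held the highest value in 18 of 29 (62.1%), against 27.7% of the 8213 such clusters. Without replicate 3 of both groups the median difference of the 38 genes was −0.022, with 24 lower, against −0.016 over all clusters and 56.0% of them lower. Without control replicate 3 alone and without the block it was −0.028, with 25 lower, against −0.006 over all clusters and 53.0% lower. It was −0.037 without replicate 1 and −0.032 without atorvastatin replicate 1, against 0.050 and 0.023 over all clusters. Control replicate 3 also had the widest spread of values over all clusters (SD 2.04) and the highest mean over the 6 hepatocyte markers (11.73, against 11.52 to 11.61 in the atorvastatin arrays and 11.51 and 11.59 in the other control arrays). The part of these in the shift was not tested.

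**Figure D1:**
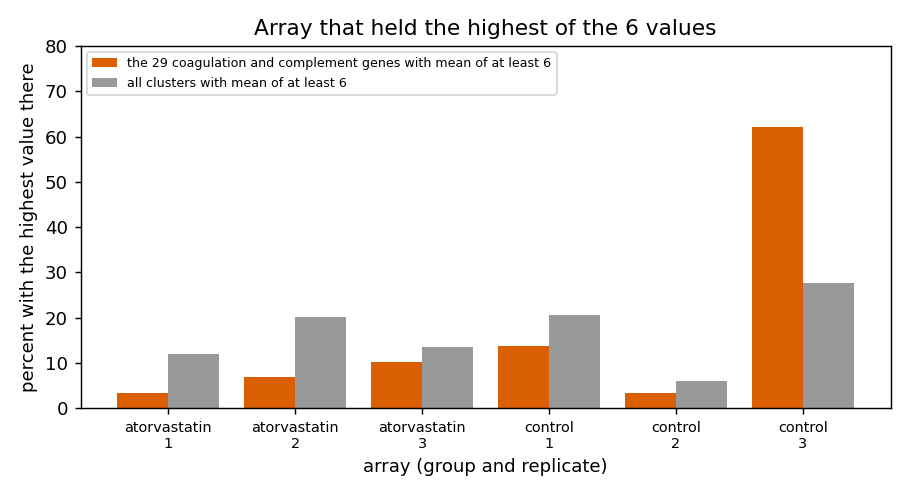
Share of genes whose highest log2 value lay on each array, for the 29 coagulation and complement genes (orange) and all 8213 clusters (grey) with a mean log2 value of at least 6. The vertical axis is a percent of genes and the horizontal axis the array. Control replicate 3 held the highest value of 62.1% of the 29 genes and of 27.7% of all such clusters.

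The groups of arrays did not overlap in 6 of the 38 genes. In 5 genes (13.2%), *C5*, *PROZ*, *C8B*, *CPB2* and *SERPIND1*, every atorvastatin array was below every control array, against 2.68% of all clusters. In 1 gene (2.63%), *F3*, every atorvastatin array was above every control array, against 4.57% of all clusters. The gap was as narrow as 0.005 on the log2 scale for *CPB2*. The count of 5 was 4 after each array was centred on its median (1.84% of all clusters) and 7 after quantile normalization was applied again (3.99%). The count of 1 was 1 after centring (4.49%), 0 after quantile normalization (4.92%), 0 of 29 among clusters of a mean of at least 6 (5.87%), and 6 without replicate 1 (29.6%). Both counts changed with the arrays compared. Fewer arrays make a lack of overlap more frequent by construction, and the shares of all clusters rose too. The count of genes lower without overlap was 8 without atorvastatin replicate 2 (7.24% of all clusters) and 11 without control replicate 1 (11.2%). Without replicate 1, 2 or 3 of both groups it was 14, 10 and 8, against 20.2%, 9.64% and 17.3% of all clusters.

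**Figure D2:**
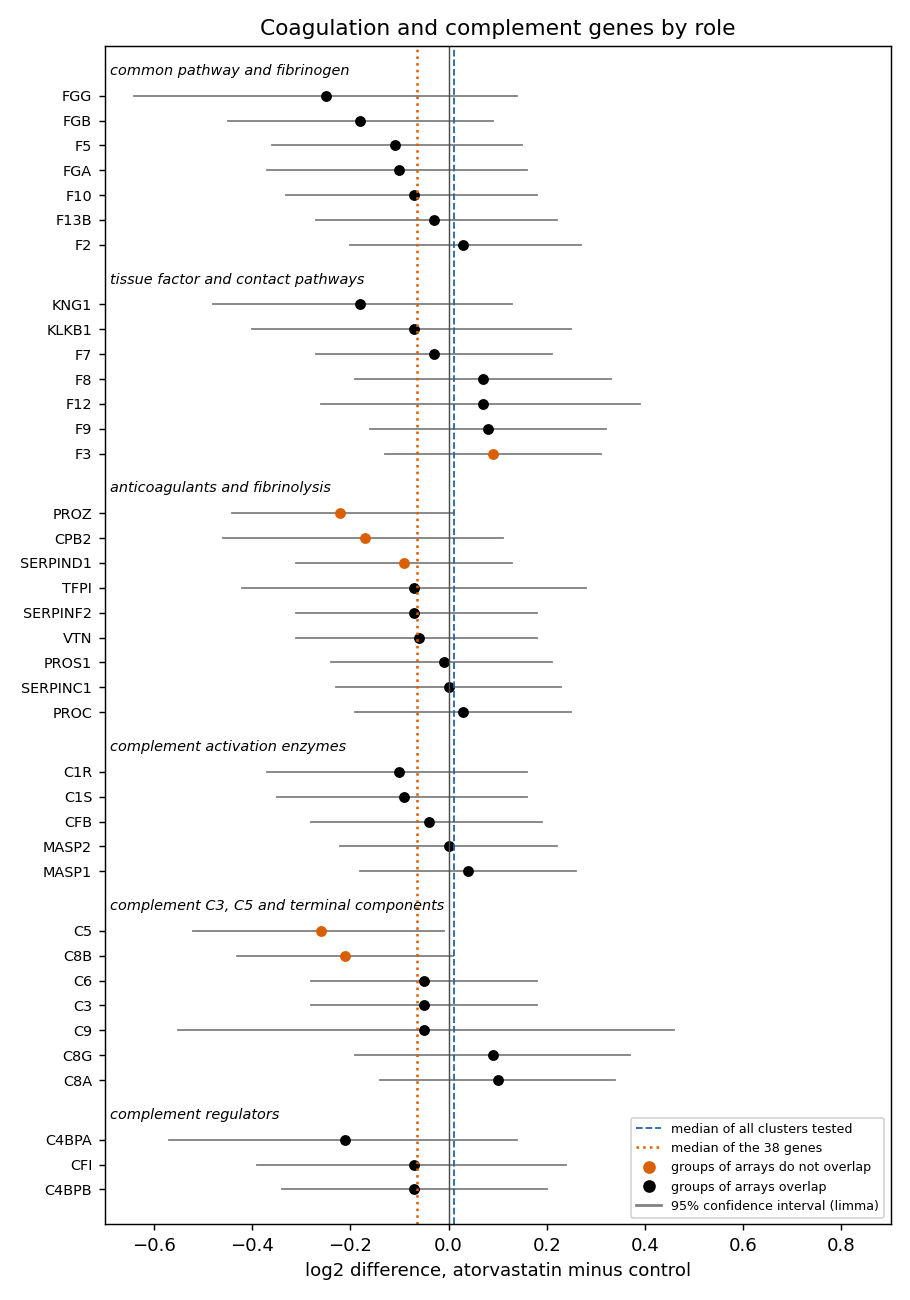
Log2 difference (atorvastatin minus control, horizontal axis) of the 38 genes in rows grouped by role, with the 95% confidence interval from limma as a grey line. Orange points are the 6 genes whose groups of arrays did not overlap, and the dotted and dashed lines are the median of the 38 genes (−0.065) and of all clusters (0.011). The interval of *C5* alone ends below 0.

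In the common pathway and fibrinogen group, 6 of the 7 measured genes had a lower mean and none passed the test (median log2 difference −0.105). The 3 fibrinogen chain genes lie next to each other on chromosome 4, and all had their highest value on control replicate 3. *FGA*, the alpha chain, had log2 values of 10.91, 10.91 and 10.80 in the atorvastatin arrays, against 10.85, 10.96 and 11.12 in the control arrays (difference −0.10, 95% confidence interval −0.37 to 0.16). The groups overlapped, with 1 atorvastatin array below all control arrays and 2 control arrays above the rest. *FGB*, the beta chain, had values of 9.52, 9.45 and 9.43 in the atorvastatin arrays, against 9.47, 9.71 and 9.77 in the control arrays, a difference of −0.18 (−0.45 to 0.09). Only control replicate 1 reached down into the atorvastatin values. *FGG*, the gamma chain, had values of 9.33, 9.34 and 9.22 in the atorvastatin arrays, against 9.19, 9.52 and 9.92 in the control arrays, a difference of −0.25 (−0.64 to 0.14). The control arrays of *FGG* spread over more than the atorvastatin arrays (SD 0.0689 in the atorvastatin arrays and 0.364 in the control arrays, n = 3 each), and the lowest of all 6 values was control replicate 1. None of the 3 passed the test (adjusted *p* = 1 each from limma). Without replicate 3 the differences were 0.002, −0.10 and −0.02, and without replicate 1 they were −0.18, −0.30 and −0.44.

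The promoter windows of the fibrinogen genes are shown because all 3 genes were highest on the same array, control replicate 3. This is not particular to them, as that array was the highest in 20 of the 38 genes. RefSeq windows (GRCh38.p14, 250 bases before to 50 after the annotated start) were in the table for 37 of the 42 genes. The table did not list *C1S*, *C3*, *C8G*, *SERPINC1* and *SERPINF2*. Letters of 6 motifs were searched on both strands, and matches are in capitals. No matches in the printed windows overlapped. The HNF1 motif (GTTAATNAT), named for a homeodomain factor of the liver, was in the windows of *FGA*, *C5*, *C4BPA*, *F13B* and *PLG*, 5 of the 37 genes (13.5%) against 0.963% of the 27305 genes in the table. The C/EBP motif (TTGCNNAA) was in 9 (24.3%, against 12.7%) and the STAT3 motif (TTCNNNGAA), named for the mediator of interleukin-6 signals, in 13 (35.1%, against 9.38%). The letters TGTTTA of forkhead factors were in 9 genes (24.3%, against 14.7%). The SREBP motif (TCACNCCAC), named for the sterol-responsive factor, was in 0 of the 37 genes and in 1.39% of all. These are matches of letters in this window only. The spellings were chosen with their matches known, so the shares set side by side are not a test. The *FGA* window holds STAT3, C/EBP and HNF1 letters, in that order from the 5′ end, and the *FGG* window none of the 6 motifs. C/EBP letters are in the window of *FGB* at each of its annotated starts in the table, of which 1 is printed.
FGA (chr4:154590693-154590992, minus strand): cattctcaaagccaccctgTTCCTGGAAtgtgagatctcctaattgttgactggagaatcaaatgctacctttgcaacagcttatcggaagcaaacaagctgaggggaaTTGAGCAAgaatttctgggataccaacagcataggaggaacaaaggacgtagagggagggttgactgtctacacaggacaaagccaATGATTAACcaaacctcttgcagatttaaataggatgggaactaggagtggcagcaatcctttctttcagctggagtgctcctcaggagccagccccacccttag
FGB (chr4:154562730-154563029, plus strand): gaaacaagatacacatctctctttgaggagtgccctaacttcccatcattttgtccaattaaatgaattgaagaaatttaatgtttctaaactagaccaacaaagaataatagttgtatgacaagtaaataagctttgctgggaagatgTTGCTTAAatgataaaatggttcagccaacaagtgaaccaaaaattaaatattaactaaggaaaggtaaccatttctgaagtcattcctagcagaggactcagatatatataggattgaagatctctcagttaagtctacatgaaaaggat
FGG (chr4:154612607-154612906, minus strand): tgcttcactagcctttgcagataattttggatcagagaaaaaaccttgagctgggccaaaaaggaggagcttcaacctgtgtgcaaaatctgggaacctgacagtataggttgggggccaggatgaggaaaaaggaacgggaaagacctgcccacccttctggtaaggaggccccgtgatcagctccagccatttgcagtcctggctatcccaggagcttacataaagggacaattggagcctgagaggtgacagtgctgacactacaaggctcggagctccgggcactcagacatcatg

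The other genes of the common pathway had overlapping groups too. *F5*, the cofactor of factor Xa, had log2 values of 9.01, 8.98 and 8.96 in the atorvastatin arrays, against 8.93, 9.12 and 9.22 in the control arrays (difference −0.11, 95% confidence interval −0.36 to 0.15). The control values of *F5* lay on both sides of the atorvastatin values. *F2*, prothrombin, had a mean of 9.81 ± 0.096 in the atorvastatin arrays and 9.78 ± 0.0554 in the control arrays (SD, n = 3 each). *F10*, the zymogen of factor Xa, had a difference of −0.07 (−0.33 to 0.18). *F13B*, the carrier subunit of the fibrin-crosslinking factor XIII, was dim, with values of 3.36, 3.38 and 3.33 in the atorvastatin arrays, against 3.25, 3.37 and 3.53 in the control arrays.

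Of the tissue factor and contact pathway genes, 7 of 8 were measured, of which 4 had a higher and 3 a lower mean, and none passed the test (median log2 difference 0.065). This is the only one of the 6 role groups whose median was above 0. The median was −0.064 without replicate 3 and 0.126 without replicate 1, so its sign depended on the arrays. *F3*, tissue factor, the membrane protein that starts coagulation, had log2 values of 5.91, 5.92 and 5.90 in the atorvastatin arrays, against 5.89, 5.81 and 5.76 in the control arrays. All atorvastatin values of *F3* were above the control values, by a gap of 0.010, at a dim level. The arrays differed by 0.09 on the log2 scale (interval −0.13 to 0.31), which did not pass the test (adjusted *p* = 1 from limma). *KNG1*, kininogen, the cofactor of the contact system, had values of 6.31, 6.18 and 6.26 in the atorvastatin arrays, against 6.17, 6.45 and 6.66 in the control arrays, a difference of −0.18 (−0.48 to 0.13). The groups of *KNG1* overlapped through control replicate 1, as in *FGB*.

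*F7*, the protease that tissue factor activates, had log2 values of 7.41, 7.49 and 7.51 in the atorvastatin arrays, against 7.60, 7.48 and 7.43 in the control arrays, and the groups overlapped. *F9*, the zymogen that is deficient in haemophilia B, was dim, with values of 3.15, 3.25 and 3.17 in the atorvastatin arrays, against 3.23, 3.06 and 3.04 in the control arrays. *F8*, its cofactor, and *KLKB1*, plasma prekallikrein, were dim as well, with means over 6 arrays of 3.95 and 3.59. *F12*, the contact factor XII, differed by 0.07 on the log2 scale (interval −0.26 to 0.39). The cluster of *F11*, factor XI, is shared with its antisense gene *F11-AS1*, so its values of 7.62, 7.50 and 7.60 in the atorvastatin arrays, against 7.66, 7.62 and 7.82 in the control arrays, cannot be assigned to *F11* alone.

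Of the anticoagulant and fibrinolysis genes, 9 of 11 were measured, 8 had a lower mean, and none passed the test (median log2 difference −0.066). This group holds 3 of the 5 genes that were lower without overlap, as were 2.68% of all clusters. Of these 3, *CPB2* was separated by 0.005 and *SERPIND1* by 0.028 on the log2 scale. *PROZ*, protein Z, a vitamin K-dependent cofactor for the inhibition of factor Xa, had log2 values of 6.68, 6.66 and 6.66 in the atorvastatin arrays, against 6.98, 6.86 and 6.82 in the control arrays. The atorvastatin arrays lay close to each other and below each control array, and the highest value was control replicate 1 and not control replicate 3. The mean was 6.67 ± 0.012 in the atorvastatin arrays and 6.89 ± 0.0863 in the control arrays (SD, n = 3 each), a fold change of 0.861 (log2 difference −0.22, 95% confidence interval −0.44 to 0.01). It did not pass the test (adjusted *p* = 1 from limma with and without the block). The difference was −0.17 to −0.25 when replicates or single arrays were left out.

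*PROZ*, *F10* and *F7* are near neighbours on chromosome 13, and their log2 differences were −0.22, −0.07 and −0.03. The window of *PROZ* is shown because it is 1 of the 2 with the HNF4 motif (CAAAGTCCA), named for the nuclear receptor of hepatocytes, in capitals. The motif was in *PROZ* and *F10* (5.41% of the 37 genes, against 0.472% of all), with its spelling also chosen with the matches known. It lay at positions −34 to −26 from the start of *PROZ*, on the opposite strand.
PROZ (chr13:113158398-113158697, plus strand): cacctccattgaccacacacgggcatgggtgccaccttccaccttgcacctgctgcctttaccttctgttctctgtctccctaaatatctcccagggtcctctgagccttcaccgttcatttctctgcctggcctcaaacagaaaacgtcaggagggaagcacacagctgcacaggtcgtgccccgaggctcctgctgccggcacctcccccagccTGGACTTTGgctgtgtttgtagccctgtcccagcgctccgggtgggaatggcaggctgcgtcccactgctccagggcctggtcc

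*CPB2*, a carboxypeptidase that protects fibrin from plasmin, had log2 values of 9.93, 9.87 and 9.79 in the atorvastatin arrays, against 9.95, 9.93 and 10.24 in the control arrays. The groups were separated by 0.005, and control replicate 3 stood above the other 5 arrays. The means differed by −0.17 (interval −0.46 to 0.11), which did not pass the test (adjusted *p* = 1 from limma), and by −0.04 without replicate 3. *SERPIND1*, heparin cofactor II, which inhibits thrombin, had values of 11.62, 11.66 and 11.65 in the atorvastatin arrays, against 11.73, 11.69 and 11.78 in the control arrays. All atorvastatin values of *SERPIND1* were lower, with a difference of −0.09 (−0.31 to 0.13), which was −0.07 to −0.12 when arrays were left out.

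The other anticoagulant and fibrinolysis genes had overlapping groups. *SERPINC1*, antithrombin, had a mean of 8.87 ± 0.0583 in the atorvastatin arrays and 8.87 ± 0.0519 in the control arrays (SD, n = 3 each), with an interval of the log2 difference from −0.23 to 0.23. *PROC*, protein C, had a difference of 0.03 (95% confidence interval −0.19 to 0.25) and *PROS1*, its cofactor protein S, of −0.01 (−0.24 to 0.21). The differences were −0.07 for *TFPI*, the tissue factor pathway inhibitor, −0.07 for *SERPINF2*, the plasmin inhibitor, and −0.06 for *VTN*, vitronectin. *TFPI* had a difference of −0.27 without replicate 1 and 0.08 without replicate 3. The clusters of *SERPINA5*, the protein C inhibitor, and *PLG*, plasminogen, carry other genes too. The *SERPINA5* cluster is shared with *SERPINA3*, an acute-phase serpin, and had a log2 difference of −0.18 (−0.55 to 0.18). Both *PLG* clusters are shared with related genes, and their differences were 0.02 and 0.01.

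**Figure D3:**
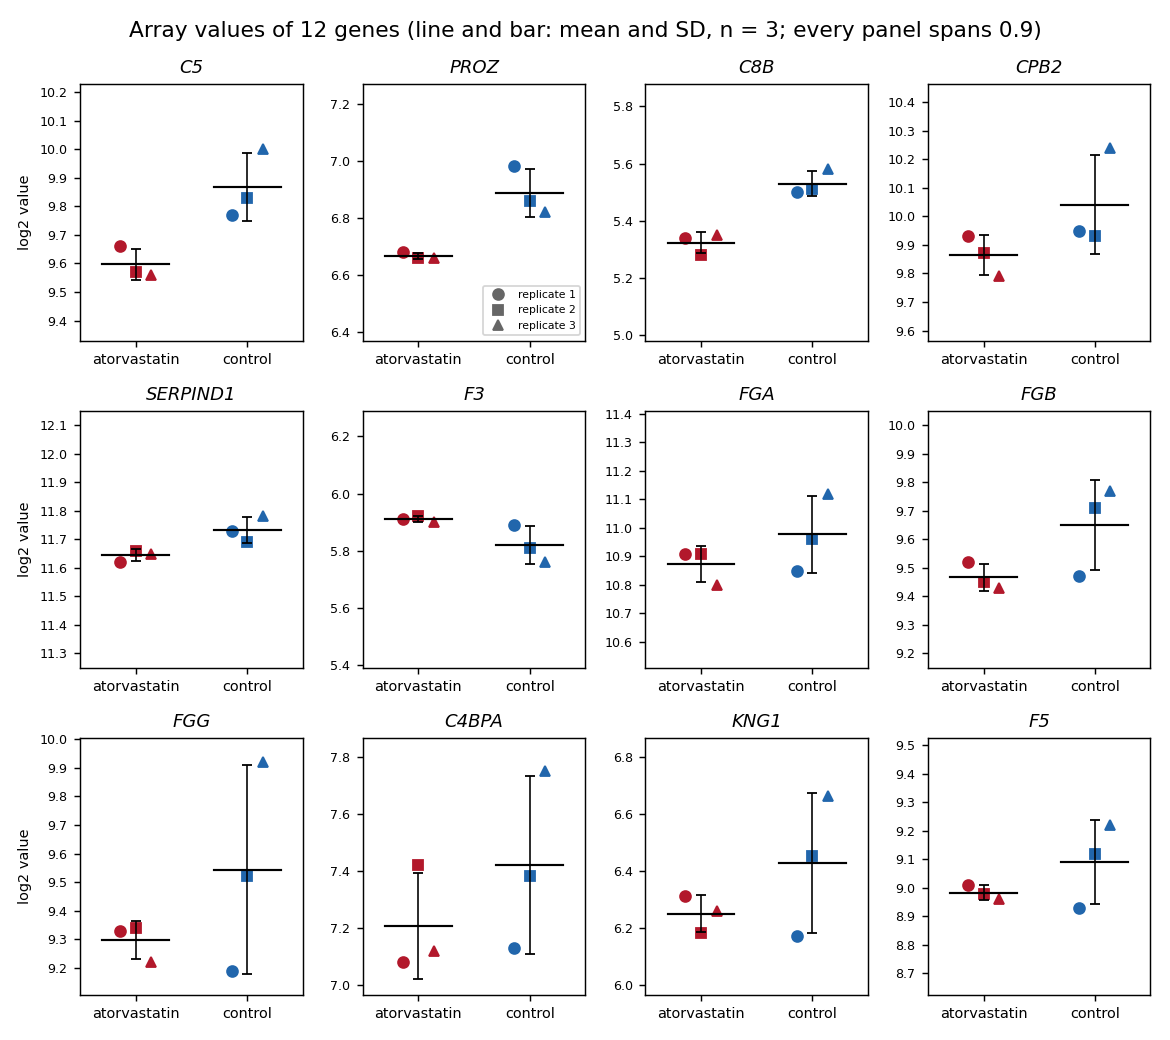
Log2 value (vertical axis, each panel spanning 0.9) of 12 genes on the 3 atorvastatin arrays (red) and the 3 control arrays (blue), with the symbol of the point giving the replicate number and the black line and bar the mean and SD (n = 3). *C5*, *PROZ*, *C8B*, *CPB2* and *SERPIND1* have no overlap with atorvastatin lower. All genes shown except *PROZ* and *F3* have their highest value on control replicate 3.

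Of the complement activation enzymes, 5 of 6 were measured, 4 had a lower mean and none passed the test (median log2 difference −0.044, and 0.007 without replicate 1). *CFB*, factor B, the protease of the alternative pathway, had log2 values of 8.30, 8.28 and 8.17 in the atorvastatin arrays, against 8.24, 8.29 and 8.35 in the control arrays. *MASP2*, a protease of the lectin pathway, had values of 5.74, 5.80 and 5.81 in the atorvastatin arrays, against 5.79, 5.82 and 5.74 in the control arrays. The groups of both genes overlapped, with a difference of −0.04 (95% confidence interval −0.28 to 0.19) for *CFB* and an interval of −0.22 to 0.22 for *MASP2*. *C1R* and *C1S*, the neighbouring genes of the proteases of the C1 complex, had differences of −0.10 and −0.09, and *MASP1*, another lectin pathway protease, of 0.04. The *C1R* difference was 0.01 without replicate 1, and control replicate 1 was its highest array (6.38). *C2*, the classical pathway protease, shares its only cluster with *CFB*, and that cluster had a difference of −0.06 (−0.32 to 0.20).

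Of the 7 genes for C3, C5 and the terminal components, all were measured and 5 had a lower mean (median log2 difference −0.05). *C5*, whose protein is cleaved to the anaphylatoxin C5a and starts the membrane attack complex, had the largest difference of the 38 genes. Its log2 values were 9.66, 9.57 and 9.56 in the atorvastatin arrays, against 9.77, 9.83 and 10.00 in the control arrays. Every atorvastatin array was below every control array, by a gap of 0.101 between atorvastatin replicate 1 and control replicate 1. Control replicate 3 was the highest array, so leaving it out could not close the gap. The mean was 9.60 ± 0.0554 in the atorvastatin arrays and 9.86 ± 0.12 in the control arrays (SD, n = 3 each), a fold change of 0.833 (log2 difference −0.26, 95% confidence interval −0.52 to −0.01). *C5* did not pass the correction (adjusted *p* = 1 from limma with and without the block). Its difference was −0.18 to −0.34 when replicates or single arrays were left out. Of the 38 genes, *C5* was the 1 gene with an unadjusted *p* under 0.05 in the fit with the block, and without the block *PROZ* and *C8B* joined it (3 of 38, against 2.12% of all clusters). With the methods' paired test *C5* was lost and the count was 2, *PROZ* and *C8B* (2.47%). It was also 2 with a trended and robust variance (*C5* and *FGB*, 1.41%), and with quantile normalization again (1.59%) or clusters of a mean of at least 6 alone (1.31%), where it held *C5* and *PROZ*. It was 5 without replicate 1 (7.98%), 0 without replicate 2 (0.5%), 0 without replicate 3 (3.34%) and 8 without control replicate 1 and the block (7.34%). The *C5* window that holds the HNF1 letters, at positions −69 to −61 from 1 of the annotated starts of *C5*, is shown because *C5* had the largest difference.
C5 (chr9:121050226-121050525, minus strand): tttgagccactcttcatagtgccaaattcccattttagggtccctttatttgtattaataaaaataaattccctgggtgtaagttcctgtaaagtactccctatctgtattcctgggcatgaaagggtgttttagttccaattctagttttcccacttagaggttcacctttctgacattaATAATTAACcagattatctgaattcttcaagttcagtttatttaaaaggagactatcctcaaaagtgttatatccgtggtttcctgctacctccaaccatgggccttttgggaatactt

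*C8A* and *C8B*, adjacent genes on chromosome 1 for the alpha and beta chains of C8, had differences of opposite sign. *C8B* had log2 values of 5.34, 5.28 and 5.35 in the atorvastatin arrays, against 5.50, 5.51 and 5.58 in the control arrays. Every atorvastatin value of *C8B* was below the control values, at a dim level, with a log2 difference of −0.21 (interval −0.43 to 0.01, adjusted *p* = 1 from limma with and without the block). It was −0.18 to −0.23 when arrays were left out. *C8A* had values of 6.06, 6.06 and 6.07 in the atorvastatin arrays, against 5.85, 5.91 and 6.12 in the control arrays, a difference of 0.10 (−0.14 to 0.34). Its groups overlapped through control replicate 3. The contrast between the 2 genes was noticed in the values and not tested. *C8G*, the gamma chain, had a difference of 0.09 (−0.19 to 0.37).

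*C3*, on which all complement arms meet, had log2 values of 12.16, 12.23 and 12.15 in the atorvastatin arrays, against 12.22, 12.18 and 12.29 in the control arrays (difference −0.05, 95% confidence interval −0.28 to 0.18). The groups overlapped. *C6*, a terminal component, had a difference of −0.05 (−0.28 to 0.18) at a dim mean of 4.03. *C9*, which forms the ring of the pore, was dim, with scattered values of 2.16, 2.09 and 2.65 in the atorvastatin arrays, against 1.96, 2.82 and 2.27 in the control arrays. Its sign changed when arrays were left out (−0.26 to 0.29).

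The 3 complement regulators all had a lower mean and none passed the test (median log2 difference −0.072). *C4BPA*, the alpha chain of C4b-binding protein, had log2 values of 7.08, 7.42 and 7.12 in the atorvastatin arrays, against 7.13, 7.38 and 7.75 in the control arrays, a difference of −0.21 (95% confidence interval −0.57 to 0.14, adjusted *p* = 1 from limma). Replicate 2 was alike in both groups, and control replicate 3 was the highest array. *C4BPB*, the neighbouring gene of the beta chain, had a difference of −0.07 (−0.34 to 0.20). *CFI*, factor I, the protease that cleaves C3b and C4b, had values of 9.07, 9.03 and 8.85 in the atorvastatin arrays, against 8.82, 9.14 and 9.20 in the control arrays, a difference of −0.07 (−0.39 to 0.24). Without replicate 3, 1 of the 3 regulators had a lower mean and the median difference was 0.043.

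**Figure D4:**
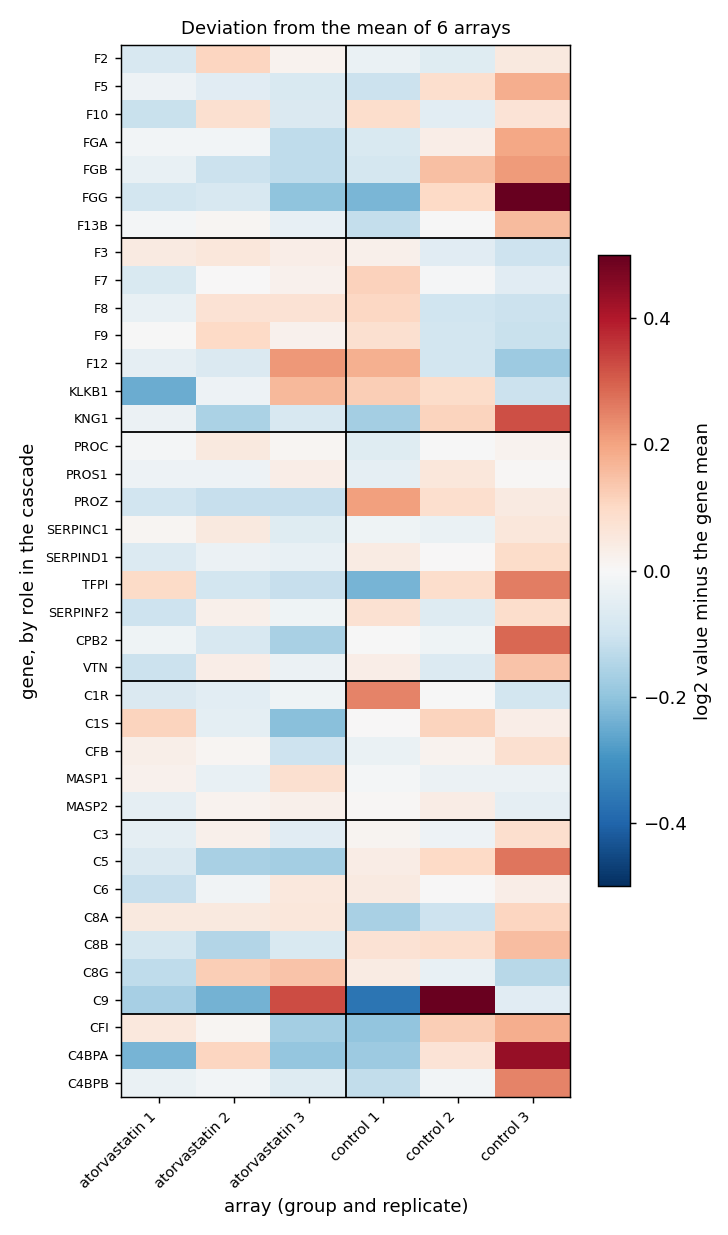
Log2 value of each of the 38 genes (rows, ordered by role, with black lines between roles) on each array (columns) minus the mean of the gene over the 6 arrays, on a colour scale from −0.5 (blue) to 0.5 (red). The column of control replicate 3 is red in most rows, with the strongest values in *FGG* and *C4BPA*, and *PROZ* is red on all 3 control arrays.

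Of the 38 genes, 9 had a mean log2 value under 6. The mean was lower in 6 of these 9 (66.7%, against 39.8% of the 4584 clusters under 6) and in 23 of the 29 at or above 6 (79.3%, against 46.6% of the 8213 such clusters). The median log2 difference was −0.025 in the 9 and −0.071 in the 29, against 0.020 and 0.006 in all clusters of the same levels.

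The lists were widened to other genes of coagulation and complement. Of 62 further genes (receptors, inhibitors, the vitamin K cycle and complement recognition molecules), 39 were measured, of which 17 had a lower mean (43.6%, against 44.2% of all clusters) and 22 a higher mean, with a median log2 difference of 0.015. In limma, 0 of the 39 had an adjusted *p* under 0.05 and 0 an unadjusted *p* under 0.05, against 0.0% and 0.992% of all clusters. The difference between these genes and the 38 was not tested. The smallest *p* was that of *HRG*, histidine-rich glycoprotein (log2 difference 0.19, adjusted *p* = 1 from limma), at a dim mean of 3.31. *SERPING1*, the C1 inhibitor, had log2 values of 7.33, 7.41 and 7.35 in the atorvastatin arrays, against 7.42, 7.52 and 7.59 in the control arrays. *LMAN1*, a receptor for the export of factors V and VIII from the endoplasmic reticulum, had values of 9.66, 9.63 and 9.61 in the atorvastatin arrays, against 9.67, 9.77 and 9.91 in the control arrays. In these 2 of the 39 genes all atorvastatin arrays were lower, against 2.68% of all clusters, and in 0 they were all higher, against 4.57%. They had log2 differences of −0.14 and −0.15 (adjusted *p* = 1 each from limma). *A2M*, the protease inhibitor alpha-2-macroglobulin, had a difference of −0.14 (95% confidence interval −0.38 to 0.11).

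None of the measured cell type markers passed the test. The mean log2 value over the 6 hepatocyte markers was 11.52 to 11.61 in the atorvastatin arrays and 11.51 to 11.73 in the control arrays. Their median log2 difference was −0.016, and 4 of the 6 had a lower mean, against 44.2% of all clusters. The mean over the 5 measured endothelial markers was 4.90 to 5.08 in the atorvastatin arrays and 4.72 to 5.01 in the control arrays. The difference was above 0 in 5 of these 5 genes, of which 4 were dim, with a median of 0.086. Among all clusters it was above 0 in 7146 of 12797, and in 2761 of the 4584 with a mean under 6. Control replicate 3 had the lowest mean of the endothelial markers (4.72). The mean was 4.63 to 4.73 in the atorvastatin arrays and 4.53 to 4.73 in the control arrays for the 6 fibroblast markers, of which 6 had a difference above 0 (median 0.033), again with the lowest mean on control replicate 3 (4.53). It was 3.12 to 3.23 in the atorvastatin arrays and 3.10 to 3.24 in the control arrays for the 2 measured leukocyte markers. Of the hepatocyte markers, *APOH*, beta-2-glycoprotein I, was lower without overlap (difference −0.15, adjusted *p* = 1 from limma). The part of the markers in the differences of the 38 genes was not tested.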

How the data were processed

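Gene expression was measured in 3 atorvastatin and 3 control samples of HepG2. Scanner files were normalized by the authors with RMA in Partek Genomics Suite, restricted to core probe sets and summarised as a mean per gene. The deposited table holds the resulting log2 values, 1 per transcript cluster and array (1.48 to 13.05). The submitters' processing notes name build hg18, so no array coordinates are given, and software versions for these steps are not given in the sources used here. RMA makes the arrays alike in distribution, so a shift shared by most genes could not be seen.

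Symbols came from the platform annotation, and 12774 of the 12797 clusters with 1 symbol matched the RefSeq gene table by Entrez ID. No gene of the list had several such clusters. Clusters with several symbols (1934) or none (1903) entered only alternatives. Values were compared in limma 3.58.1 (R 4.3.3, lmFit and eBayes) with the replicate number as a block, after the paired test of the study's methods, which left 2 residual and 4.58 prior degrees of freedom. Benjamini-Hochberg adjustment ran over the 12797 clusters. The same-number deviations from the group means correlated by −0.46, 0.07 and −0.56, so the values gave no sign of pairing. The fits were tested on simulated data. The number of arrays limits the precision.

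The members and lists were chosen with earlier results of these data known, and the motif spellings with their matches known. A TATA box and other spellings were searched too and are not given. Array values are given for the 10 genes with the smallest *p*, those without overlap, and the highest and lowest mean of each role. Alternatives were no block, a trended and robust variance, the methods' paired test, every cluster, a filter on a mean of 6, median centring, quantile normalization, shared clusters, and replicates or arrays left out. Python 3.11.15, pandas 2.3.3 and matplotlib 3.10.9 were used. Other measurements of the study were not analysed here.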

Additional observations from a re-analysis of the deposited data

How the results depend on the processing

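None of the 38 genes had an adjusted *p* under 0.05 in limma with the block, without the block, or under any other alternative run, including the methods' paired test. The unadjusted count of 1 (0.992% of all clusters) was 3 without the replicate block (2.12%). It was 2 with the methods' paired test (2.47%), a trended and robust variance (1.41%), quantile normalization again (1.59%) or only clusters of a mean of at least 6 (1.31%). It ranged from 0 to 8 when replicates or single arrays were left out, against 0.5% to 7.98% of all clusters. The count of genes higher without overlap, 1 with all arrays (4.57%), was 0 with the filter on a mean of 6 (5.87%) and 0 with quantile normalization (4.92%). It ranged from 1 to 6 when arrays were left out, against 6.93% to 29.6% of all clusters. The count lower without overlap was 5 (2.68%), and ranged from 6 to 14, against 4.23% to 20.2% of all clusters. Fewer arrays make a lack of overlap more frequent by construction. The median log2 difference of −0.065 (0.011 over all clusters) ranged from −0.077 to −0.022 and kept its sign. The −0.077, without atorvastatin replicate 2, stood against 0.013 over all clusters. The −0.022, without replicate 3 of both groups, stood against −0.016, so little of the distance from all clusters was left there. With all 42 genes, shared clusters included, the median of the genes was −0.065, with 32 lower. The sign of the difference changed in at least 1 of the 9 fits with arrays left out in 17 of the 38 genes, and was kept in 21. Of the genes given by array, it changed for *C9* (−0.26 to 0.29), *CFB* (−0.10 to 0.03), *CFI* (−0.23 to 0.07), *F13B* (−0.09 to 0.06), *F7* (−0.09 to 0.04), *FGA* (−0.18 to 0.002) and *MASP2* (−0.04 to 0.02). The cause was not tested. The same-number arrays showed no pairing, and the block changed no adjusted call among the 38 genes, while over all clusters 0 were called with it and 4 without it. In the other 39 genes the adjusted count was 0 without the block and without each replicate, against 0.0% to 0.25% of all clusters. Their unadjusted count, 0 with all arrays (0.992% of all clusters), was 4 without replicate 1 (7.98%) and 1 without replicate 3 (3.34%).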
